A study of Homo sapiens with 6 samples.

Results

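The MIR148A and NFE2L3 locus on the short arm of chromosome 7 (7p15.2) was examined as the 560 kb window chr7:25700000-26260000 (hg19). In hg19, MIR148A lies at chr7:25989539 and the body of NFE2L3 at chr7:26191860-26226745, 202 kb to its right. A contact was counted in the locus when either of its ends overlapped the window. The locus was chosen by measured values: an H3K27ac anchor at chr7:25881214-25912056 with a high contact count at day 3 had no ARID1A anchor. That anchor, its loops, and the contrast of ARID1A with H3K27ac at day 3 are therefore described without a test. PETs that other anchors share with it stay in their levels and folds, and the result without its loops is given beside the counts. After anchors that overlap were merged, the locus held 18 of 30001 anchors and 542 of 348566 loops over all 6 libraries, and 18 of 18038 anchors over the 4 H3K27ac libraries.

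MIR148A encodes miR-148a, a microRNA that binds partly complementary sites in messenger RNAs through its seed and lowers their translation and stability; DNMT1 is among its known targets. NFE2L3, also called NRF3, is a cap'n'collar basic leucine zipper transcription factor related to NRF2 that pairs with small MAF proteins. H3K27ac marks active enhancers and promoters, and ARID1A is a DNA-binding subunit of the canonical BAF form of the SWI/SNF chromatin remodelling complex, which SMARCB1 also joins. HiChIP cuts and rejoins crosslinked DNA, enriches it for a mark or protein, and reads which stretches were joined, so a loop is a pair of enriched stretches (anchors) linked by paired-end tags (PETs). It measures contacts and does not measure expression of either gene.

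The cells were G401, an established rhabdoid tumour line without SMARCB1 (SMARCB1 -/- in the labels), in a stable derivative kept in Tet-free serum that makes SMARCB1 when given doxycycline. The 6 libraries formed 3 groups of 2: H3K27ac at day 0 without SMARCB1, and H3K27ac and ARID1A after 3 days of doxycycline at 1 μg/ml, labelled SMARCB1 +/+. Whether the derivative is a single clone is not given in the sources used here. SMARCB1, doxycycline and time differ together between day 0 and day 3, so their effects cannot be told apart; day 0 has no ARID1A library. Replicates are not stated to be separate cultures, so p-values reflect only how far these libraries differ, which may be technical.

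The mature sequence of the arm that names the miR-148a family is shown because its seed, bases 2 to 8 in capitals, defines which other microRNAs belong to it. Of 2545 mature human microRNAs in the RefSeq table (GRCh38.p14), 3 carry this seed, and the other two come from chromosomes 12 and 17.
hsa-miR-148a-3p: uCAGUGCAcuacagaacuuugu
hsa-miR-148b-3p: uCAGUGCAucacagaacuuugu
hsa-miR-152-3p: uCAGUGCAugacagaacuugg
Counted from 1 at the 5′ end, miR-148b-3p differs from miR-148a-3p by C9U and U10C. Over the 21 positions shared with miR-152-3p, the differences are C9U, U10G and U20G. All of these lie outside the seed.

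The stretch of 250 bases before the start of NFE2L3 is shown because the promoter anchor described below covers the gene's start (RefSeq, GRCh38.p14, plus strand, chr7:26151948-26152197). Capitals mark GC boxes, the letters GGGCGG on either strand, which Sp-family factors are known to bind.
NFE2L3 upstream: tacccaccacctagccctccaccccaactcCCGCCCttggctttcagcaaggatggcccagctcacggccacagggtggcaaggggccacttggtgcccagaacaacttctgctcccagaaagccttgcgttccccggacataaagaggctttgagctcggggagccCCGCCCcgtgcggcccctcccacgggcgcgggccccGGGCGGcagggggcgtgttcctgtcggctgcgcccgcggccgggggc
The stretch was 70.8% G or C and held 19 CpG, against medians of 58% and 11 over 35116 promoter stretches of the same length. It held 3 GC boxes, which began 220, 83 and 47 bases before the start, and 42.6% of all stretches held at least 1. On both strands no match was found for the AP-1 motif TGANTCA (in 6.57% of all stretches), the antioxidant response core TGACNNNGC (10.9%), CCAAT (32.0%) or the E-box CACGTG (6.34%).

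Listed PETs totalled 301703 and 253502 for H3K27ac before induction. At day 3 the totals were 929128 and 982141 for H3K27ac and 435210 and 467487 for ARID1A. The locus held 232 and 209 listed loops at day 0, 421 and 423 at day 3, and 274 and 278 with ARID1A. Its loops carried 3011 and 2598 PETs at day 0, 6835 and 7180 at day 3, and 1288 and 1388 with ARID1A. Replicates were set against counting noise by a chi-square test. Over anchors the chi-square per degree of freedom was 1.15 at day 0 (p = 2.42e-15), 1.04 at day 3 (p = 0.000103) and 1.01 with ARID1A (p = 0.136). Over loops the chi-square per degree of freedom was 1.07 at day 0 (p = 0.000684), 0.998 at day 3 (p = 0.577) and 1.03 with ARID1A (p = 0.0268). Each pair differed beyond counting noise on at least 1 of the 2 measures, so replicates were kept as separate libraries. Where a group lists no anchor, its contacts could not be counted, and no fold is given.

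The H3K27ac contacts of the locus came from 2 blocks of broad anchors, one from -287 kb to -53.3 kb relative to MIR148A and one around NFE2L3, with the small MIR148A anchor between them. Distances are negative toward lower coordinates, and anchors are named below by the distance of their centre from MIR148A. Of the 18 merged H3K27ac anchors, 12 were called at both times, 5 only at day 3 and 1 only at day 0. Of the 12, 9 overlapped an ARID1A anchor and 3 did not. Across the genome 16.4% of the 7263 H3K27ac anchors called at both times had no ARID1A anchor, a contrast the choice of locus used. Levels are given on 2 scales of PETs per 1000000 (CPM): listed CPM over all listed PETs of a library, and both-time CPM over the PETs of loops whose anchors were both called at both times. The second was used for all comparisons of day 3 with day 0.

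**Figure D1:**
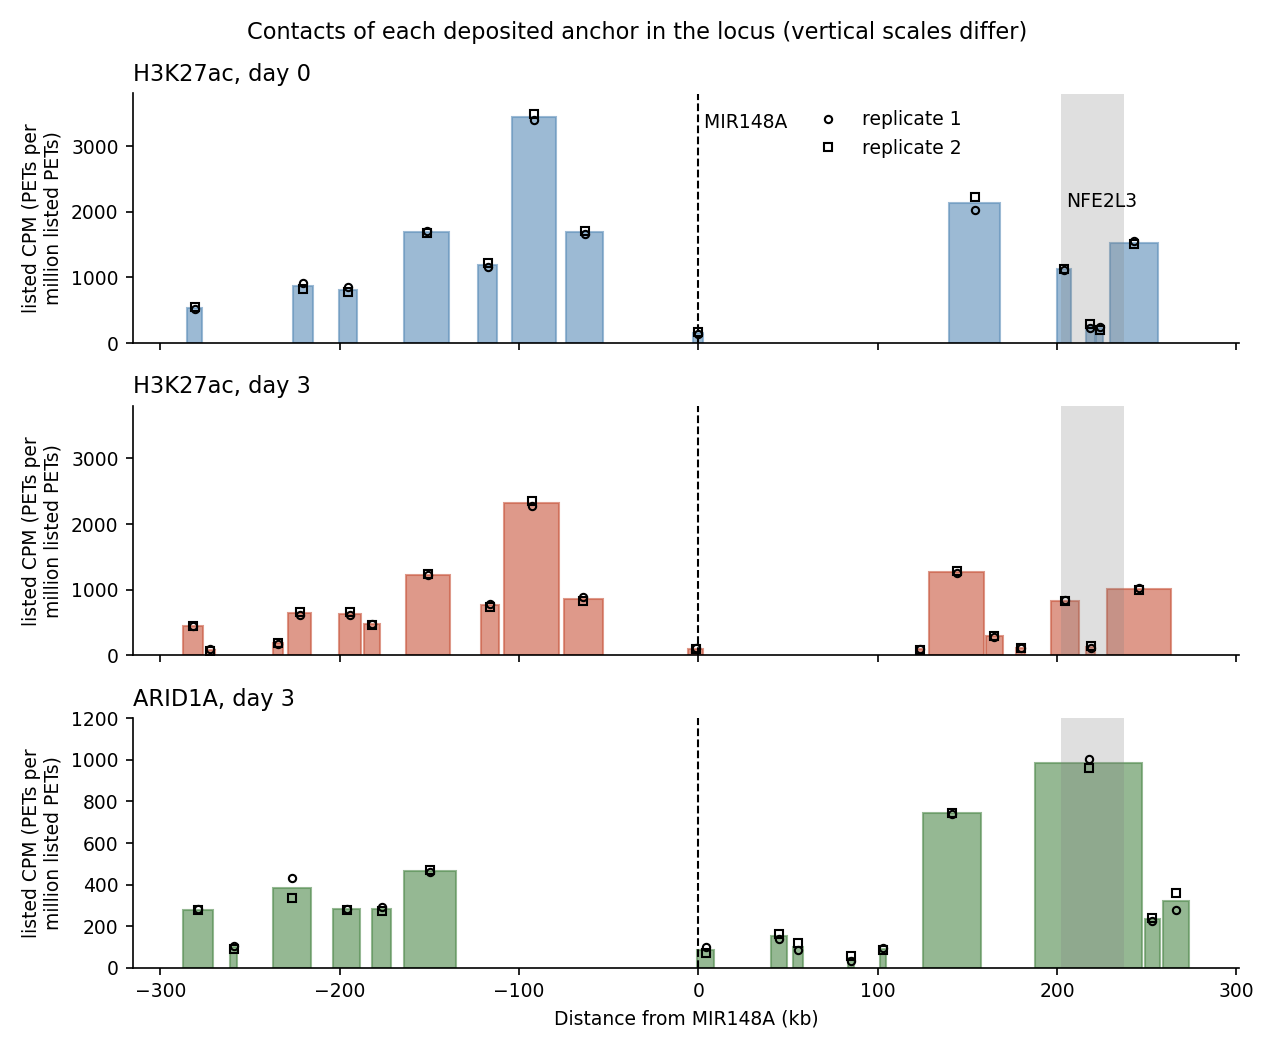
Contacts of each deposited anchor of the locus in listed CPM (PETs per 1000000 listed PETs) (vertical axis, scales differ between panels) against distance from MIR148A in kb (horizontal axis), for H3K27ac at day 0, H3K27ac at day 3 and ARID1A at day 3. Bars span the called width and reach the mean of 2 libraries, symbols are the libraries, the dashed line is MIR148A and the grey band the body of NFE2L3; in the ARID1A panel no bar stands between -135 kb and -0.643 kb, where the H3K27ac panels have 3 tall bars.

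At the right end of the locus, the anchor that covers the start of NFE2L3 (chr7:26186269-26201538, +204.4 kb) did not pass the test of a change. It had 1432 and 1469 both-time CPM at day 0 and 1522 and 1515 at day 3. The 4 libraries lay close together, with both day 3 libraries slightly above both day 0 libraries. The log2 fold change was 0.07 ± 0.08 (SE, n = 2 libraries a time; edgeR adjusted p = 0.515). Scaled by all listed PETs it was -0.49 (edgeR adjusted p = 2.94e-08), while the median of all tested anchors moved to -0.56. With only loops at a deposited value of 0.01 or less it was -0.45 and called lower (edgeR adjusted p = 0.0118), while the median of all tested anchors moved to 0.26. Its called width went from 7934 bp (chr7:26189519-26197453) to 15269 bp, a ratio of 1.92, and the part of width in the level was not tested.

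Further into NFE2L3, a narrow anchor in the gene body (chr7:26205607-26210454, +218.5 kb) fell. It had 288 and 367 both-time CPM at day 0 and 191 and 262 at day 3, so that every day 3 library lay below both day 0 libraries. Its log2 fold change was -0.51 ± 0.17 (SE, n = 2 libraries a time; edgeR adjusted p = 0.0147). The call was lost without day 0 replicate 2 (-0.35, adjusted p = 0.241), without day 3 replicate 1 (-0.27, adjusted p = 0.305), and with DESeq2 (-0.52, adjusted p = 0.165). By edgeR it was also lost after thinning all libraries to the PETs of the smallest (-0.31, adjusted p = 0.322) and with anchors of similar width (-0.28, adjusted p = 0.279). With loops at a deposited value of 0.01 or less the fold turned to 0.17 (edgeR adjusted p = 0.857). A neighbouring anchor in the gene body, chr7:26211147-26215349, was called only at day 0, with 73 and 52 PETs, so no fold is given for it.

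The broad anchor over the 3′ end of NFE2L3 and beyond (chr7:26217598-26253098, +245.8 kb) carried 2022 and 1954 both-time CPM at day 0 and 1802 and 1762 at day 3. The day 3 libraries were lower, and the log2 fold change of -0.16 ± 0.07 (SE, n = 2 libraries a time; edgeR adjusted p = 0.0721) did not pass the test. Most of this anchor lies beyond the end of NFE2L3 at chr7:26226745. The next genes in RefSeq order are HNRNPA2B1 and CBX3, and whether it covers them was not tested. The broad anchor in front of NFE2L3 (chr7:26118272-26159177, +149.2 kb), the main partner of the NFE2L3 start, fell from 2680 and 2928 to 2308 and 2373 both-time CPM. Its log2 fold change was -0.25 ± 0.06 (SE, n = 2 libraries a time; edgeR adjusted p = 0.000859). Without day 3 replicate 1 the fold was -0.20 and the call was lost (adjusted p = 0.0941); its called width rose by a ratio of 1.41.

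The MIR148A anchor (chr7:25983879-25992197, centred at -1.5 kb) was small. It held 43 and 41 PETs at day 0 against 105 and 86 at day 3, which is 194 and 218 both-time CPM at day 0 against 225 and 173 at day 3. The groups overlapped. The log2 fold change was -0.04 ± 0.20 (SE, n = 2 libraries a time; edgeR adjusted p = 0.886) and its SE was the largest of the 12 anchors. Its called width went from 5543 bp (chr7:25986654-25992197) to 8318 bp. These PETs are contacts of the DNA around MIR148A and say nothing of the amount of the microRNA.

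On the lower-coordinate side of MIR148A, the nearest anchor (chr7:25914461-25936250, -64.2 kb), 1 of the 3 without ARID1A, showed the clearest fall of the locus. It had 2216 and 2279 both-time CPM at day 0 and 1647 and 1529 at day 3, with a wide gap between the groups. The log2 fold change was -0.50 ± 0.07 (SE, n = 2 libraries a time; edgeR adjusted p = 2.47e-08). The call held in all 15 settings in which this anchor could be tested, this one included, with folds between -1.05 and -0.27 and the largest adjusted p at 0.00326. The smallest of these folds came from the fit limited to anchors of similar width at both times. That limit dropped other anchors from the fit and left the PETs of this anchor unchanged. Its own called width hardly differed, at 20447 bp and 21789 bp.

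Another anchor without ARID1A (chr7:25866810-25878104, -117.1 kb) fell from 1567 and 1645 to 1447 and 1354 both-time CPM. Its log2 fold change was -0.19 ± 0.08 (SE, n = 2 libraries a time; edgeR adjusted p = 0.0428). Leaving out any 1 of the 4 libraries lost the call, with folds from -0.23 to -0.11 and adjusted p from 0.0767 to 0.516. The groups did not overlap. The call was also lost with DESeq2 (adjusted p = 0.233). By edgeR it was lost without the filter on low counts (adjusted p = 0.0625), with the replicate block (adjusted p = 0.0511) and after thinning (adjusted p = 0.117). With anchors of similar width the fold turned to 0.037 (edgeR adjusted p = 0.827). In all, this anchor was called in 6 of 15 settings, the main fit included.

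Farther left, 4 anchors that overlap ARID1A anchors did not pass the test in the main fit, while scaling by all listed PETs put all 4 lower. The broadest of them (chr7:25825428-25851272, -151.2 kb) had 2315 and 2247 both-time CPM at day 0 and 2150 and 2234 at day 3, a log2 fold change of -0.06 ± 0.07 (SE, n = 2 libraries a time; edgeR adjusted p = 0.545). The other 3, at -194.2, -221.7 and -281.8 kb, had log2 fold changes of -0.04, -0.08 and 0.14 with edgeR adjusted p of 0.741, 0.487 and 0.33. At a deposited value of 0.01 or less, those at -151.2, -194.2 and -221.7 kb were called lower (edgeR adjusted p = 0.00637, 0.038 and 0.032). Merging within 5 kb joined those at -194.2 and -281.8 kb to neighbours called only at day 3. They were then called higher, at 0.60 and 0.31 (edgeR adjusted p = 8.41e-11 and 0.00849). Merging over all 6 libraries put those at -221.7 and -281.8 kb higher, at 0.21 and 0.33 (edgeR adjusted p = 0.0402 and 0.0061). Just inside the left edge of the window, the -281.8 kb anchor had means of 723 and 792 both-time CPM at day 0 and day 3. The nearest anchor called at both times outside that edge (chr7:25601824-25609084) had means of 105 and 299, and the nearest beyond the right edge (chr7:26400991-26406814) had means of 411 and 262.

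In all, 4 of the 11 tested anchors of the locus fell and 0 rose by edgeR in the main fit, leaving out the anchor the locus was chosen on. An unadjusted p under 0.05 was reached by 5 of the 11, and no genome-wide share was taken at that p. A loop between 2 of the 11 counts at each of its ends, so the 11 tests are not independent. The anchors that fell at -117.1, -64.2 and +149.2 kb share loops. The PETs of each of the 11 also include those it shared with the anchor the locus was chosen on. Without its loops 4 of the 11 were called lower by edgeR, those at -64.2 kb (-0.52, adjusted p = 3.6e-07), -117.1 kb (-0.29, adjusted p = 0.00719), +149.2 kb (-0.25, adjusted p = 0.00221) and +218.5 kb (-0.54, adjusted p = 0.012). The NFE2L3 start was then at 0.07 and the MIR148A anchor at 0.04. Over the genome, edgeR called 36.5% of 6500 tested anchors, 17.2% lower and 19.4% higher at day 3. The median log2 fold change was -0.08 over the 11 locus anchors and -0.01 over all tested anchors. The count rested on single libraries: it was 1 without day 3 replicate 1, 2 without day 0 replicate 2, and 3 without each of the others. With DESeq2 it was 2, beside 508 lower and 651 higher of the 5113 anchors given an adjusted p. With anchors within 5 kb merged it was 2 lower and 2 higher of 7, beside 1194 lower and 1298 higher of 5885. With anchors merged over all 6 libraries it was 4 lower and 2 higher of 9, beside 1177 lower and 1294 higher of 6251. Scaling by all listed PETs, which moved the median log2 fold change of all anchors to -0.56, put all 11 lower, against 3368 lower and 430 higher of the 6500 anchors. The locus median was then -0.64.

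**Figure D2:**
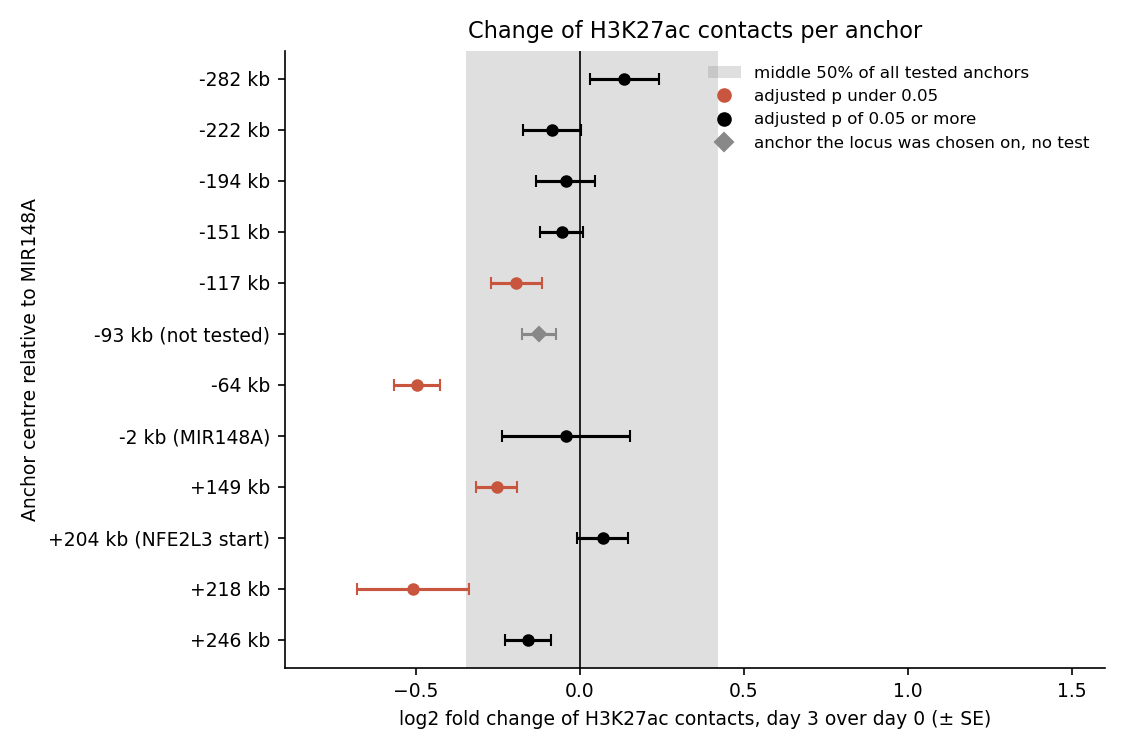
Log2 fold change of H3K27ac contacts at day 3 over day 0 (horizontal axis, points with SE bars, 2 libraries a time) for the 12 locus anchors called at both times, ordered from low to high coordinate (vertical axis, centre relative to MIR148A in kb). The grey band is the middle 50% of all 6500 tested anchors, from -0.35 to 0.42; the anchors at -64.2 kb and +218.5 kb lie below it, while those of MIR148A and the NFE2L3 start lie near 0.

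The anchor the locus was chosen on (chr7:25881214-25912056, -92.9 kb) is described here without a test. It carried 4572 and 4643 both-time CPM at day 0 and 4134 and 4288 at day 3, a log2 fold change of -0.13 ± 0.05 (SE, n = 2 libraries a time). Its called width was 24554 bp at day 0 (chr7:25885553-25910107) and 30842 bp at day 3. By contacts in listed CPM it ranked 9 of the 7263 anchors called at both times, with 3444 at day 0 and 2318 at day 3 against medians of 100 and 105. Per kb of called width it ranked 18 and 16. Among the 1193 of these without an ARID1A anchor it ranked 4 and 2 by contacts.

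Its loops reached both sides. Over the 4 libraries summed, the strongest partner lay outside the window, at chr7:25375101-25436122, where 140 and 113 PETs ended at day 0 and 238 and 294 at day 3. The -64.2 kb anchor came next, and first at day 0, with 148 and 123 PETs at day 0 against 228 and 238 at day 3. The share of its PETs at the strongest partner of each library was 14.3% ± 0.336 (SD, n = 2) at day 0 and 13.1% ± 1.02 (SD, n = 2) at day 3. It had 22 and 20 PETs with the NFE2L3 start at day 0 and 50 and 58 at day 3. Among listed loops of like span (within a factor of 1.1) in the same library, this loop lay at the 97.6, 97.6, 99.4 and 99.6 percentile. The anchor was chosen for its high contact count, so high percentiles of its loops are not a separate result. Its loop with the MIR148A anchor, the nearer gene, had 8 and 6 PETs at day 0 against 15 and 7 at day 3. That loop lay at the 65.9, 57.7, 85.5 and 62.7 percentile. The percentiles take no account of how many PETs the partner holds. Of the few PETs of the MIR148A anchor, this loop held 18.6% and 14.6% at day 0 and 14.3% and 8.14% at day 3. The loop with the NFE2L3 start held 6.92% and 7.25% of that anchor's PETs at day 0 and 7.05% and 7.71% at day 3.

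Outside the window, the anchors with the most similar levels over the 6 libraries, by distance on log2(listed CPM + 1), were chr7:25375101-25436122 (distance 0.18), chr14:68568464-68617187 (0.24) and chr12:65683050-65739919 (0.62). The first is also the strongest partner named above, so it shares PETs with it. All 3 had no ARID1A anchor. The distance includes the ARID1A libraries, so this follows from how they were picked and is not a separate result.

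The NFE2L3 start made most of its contacts close by. Its loop to the +149.2 kb anchor held 117 and 105 PETs at day 0 against 263 and 289 at day 3, and that to the anchor over the 3′ end held 63 and 59 at day 0 and 159 and 149 at day 3. The first held 37.4% ± 0.885 (SD, n = 2) of its PETs at day 0 and 37.8% ± 0.945 (SD, n = 2) at day 3, a difference within the spread of the libraries. Over the libraries of each time summed, the MIR148A anchor had its strongest partner at the same +149.2 kb anchor, with 8 and 12 PETs at day 0 against 14 and 23 at day 3. Contacts between the MIR148A and NFE2L3 start anchors numbered 1 and 2 at day 0 and 9 and 6 at day 3, too few for a fold.

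**Figure D3:**
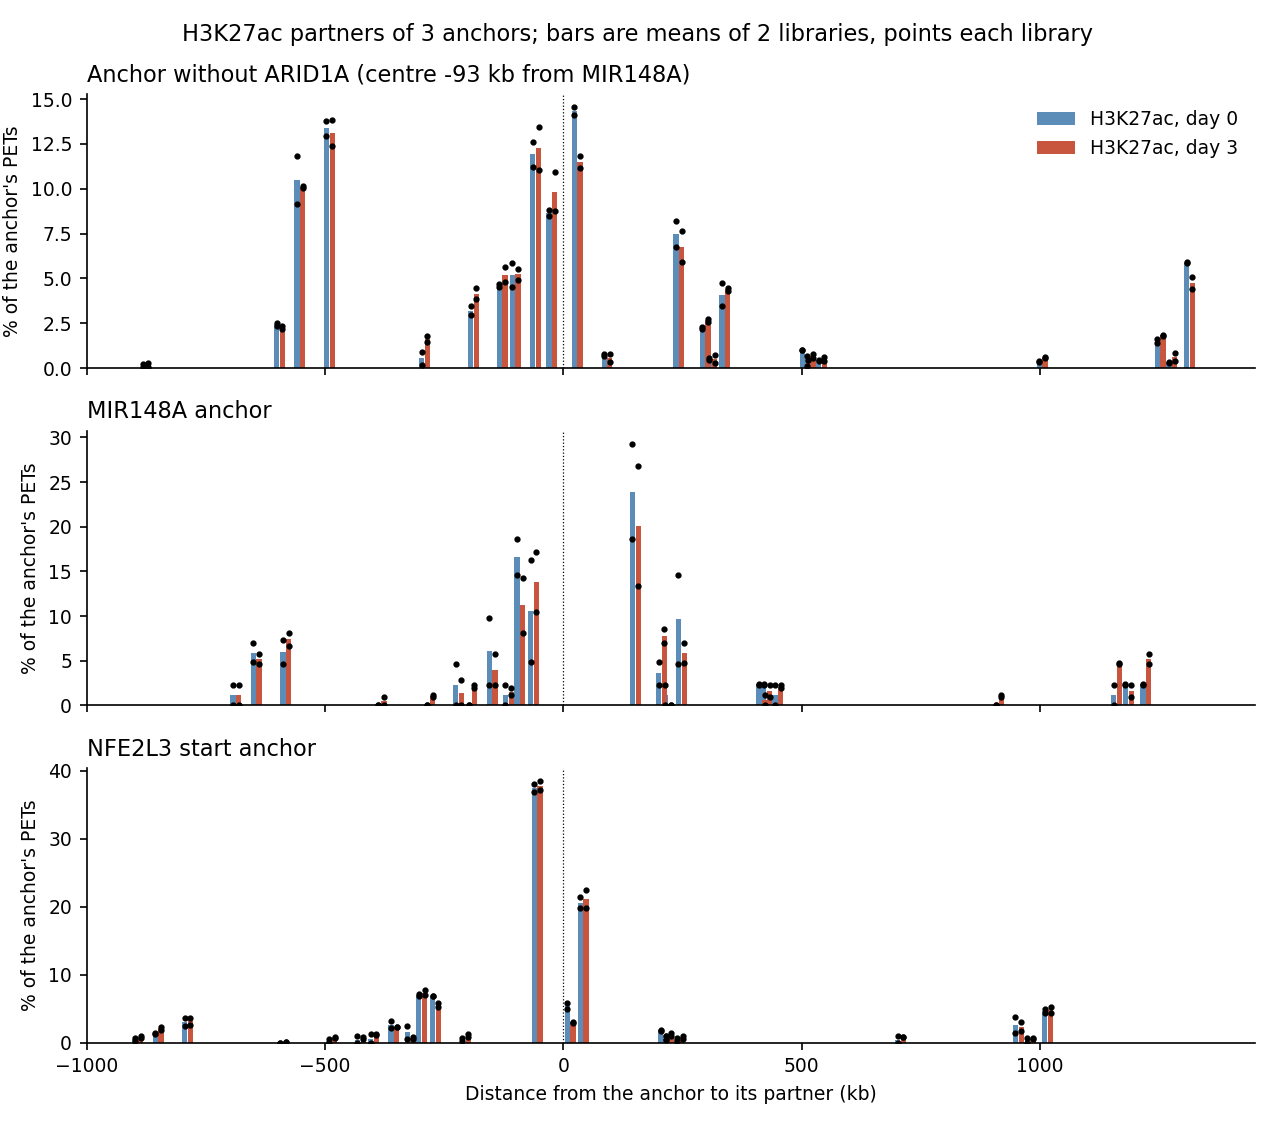
Share of each anchor's H3K27ac PETs (vertical axis, %) against the distance to the partner (horizontal axis, kb) for the anchor without ARID1A, the MIR148A anchor and the NFE2L3 start anchor. Bars are means of 2 libraries and points the libraries; the NFE2L3 start has 1 partner with 36.8% to 38.4% of its PETs in the 4 libraries, while no partner of the anchor without ARID1A exceeds 14.6%, and points of the sparse MIR148A anchor lie far apart.

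Of the 120 tested loops of the locus that did not end in the anchor it was chosen on, 9 fell and 1 was called higher. Over the genome edgeR called 13.1% of 17253 tested loops, 6% lower and 7.08% higher at day 3, and the locus shares were 7.5% and 0.833%, so the lower share was near the background. The median log2 fold change was -0.13 over the 120 locus loops and 0.05 over all tested loops. Of the 9 that fell, 5 ended in a single far anchor beyond the window, at chr7:27186269-27233068, and 4 ended in the -64.2 kb anchor, 1 of them joining the pair. The called loops were named after their values were seen.

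The calls of single loops were fragile. The number called was 1 without day 0 replicate 2, 2 without day 3 replicate 2, 4 without day 0 replicate 1 and 5 without day 3 replicate 1. It was 1 with DESeq2 and 0 after all libraries were thinned to the PETs of the smallest (edgeR), beside 674 and 213 loops genome-wide. After thinning, 9 loops had an unadjusted p under 0.05, and no genome-wide share was taken at that p. With only loops at a deposited value of 0.01 or less, 3 fell and 8 rose of 96, a split turned the other way; 2666 rose and 228 fell genome-wide in that setting. Merging anchors within 5 kb gave 5 higher and 4 lower of 65, beside 1472 and 1295 of 15672 genome-wide. Without the filter 1 was higher and 0 lower of 194, beside 1463 and 267 of 58446 genome-wide. With anchors of similar width 1 was higher and 0 lower of 41, beside 31 and 28 of 3118 genome-wide. With all listed PETs as library size, 42 fell and 0 rose in the locus, and 3218 fell and 560 rose genome-wide.

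The far anchor, 44042 bp wide at day 0 and 39792 bp at day 3, received 192 and 155 PETs at day 0 against 275 and 257 at day 3 from the locus without the anchor it was chosen on. That level was 865 and 825 both-time CPM at day 0 against 591 and 518 at day 3. With that anchor's loop included it was 1135 and 1097 at day 0 against 801 and 707 at day 3. The day 3 libraries were lower, with no overlap of the groups, and this sum was not tested as a whole. Which genes lie under it was not tested, as no hg19 annotation was used here; to the right of NFE2L3 the RefSeq gene order runs through HNRNPA2B1, CBX3, SNX10 and SKAP2 to the HOXA genes.

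Its loop with the -64.2 kb anchor fell from 185 and 181 to 96.6 and 88.6 both-time CPM, on 41 and 34 PETs at day 0 and 45 and 44 in the deeper day 3 libraries. The log2 fold change was -1.02 ± 0.23 (SE, n = 2 libraries a time; edgeR adjusted p = 0.000455). This was also the loop that DESeq2 called (adjusted p = 0.0381), and it lost its call without day 3 replicate 2 (adjusted p = 0.056). Its span was 1284 kb.

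The -151.2 kb anchor's loop with the far anchor fell from 81.1 and 101 to 32.2 and 36.3 both-time CPM (log2 fold change -1.42 ± 0.35, SE, n = 2 libraries a time; edgeR adjusted p = 0.00156), and without day 0 replicate 2 its adjusted p was 0.0679. The loops of the -117.1, +149.2 and +245.8 kb anchors fell with log2 fold changes of -1.47, -0.69 and -0.71 and edgeR adjusted p of 0.0254, 0.0152 and 0.0218. For the first and second of these, leaving out any 1 of the 4 libraries lost the call, and the third was called only without day 3 replicate 1. The loop from the NFE2L3 start itself, with 16 and 12 PETs at day 0 against 31 and 40 at day 3, had a log2 fold change of 0.08 ± 0.32 (SE, n = 2 libraries a time; edgeR adjusted p = 0.912). MIR148A had 1 and 1 PETs with the far anchor at day 0 and 6 and 4 at day 3.

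Loops of the far anchor were also lower outside the locus. The far anchor as a whole, locus loops included, fell by 0.50 ± 0.07 on the log2 scale (SE, n = 2 libraries a time; edgeR adjusted p = 6.07e-09), and by 0.50 ± 0.07 without its loop to the anchor the locus was chosen on (edgeR adjusted p = 1.37e-08). Of its 11 tested loops that lead elsewhere, 3 fell, with a median log2 fold change of -0.63, beside 5 of its 11 tested locus loops with a median of -0.48. Of the 19 tested locus loops longer than 1000 kb, 5 fell (26.3%), with a median log2 fold change of -0.16. Over the genome, 2.45% of 856 tested loops of that length fell, with a median of 0.31. Of these 5, 4 end in the far anchor, and the difference between the locus and the genome was not itself tested. The median SE was 0.62 over the locus loops of that length and 0.77 over the genome's. The part of this in the shares was not tested.

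**Figure D4:**
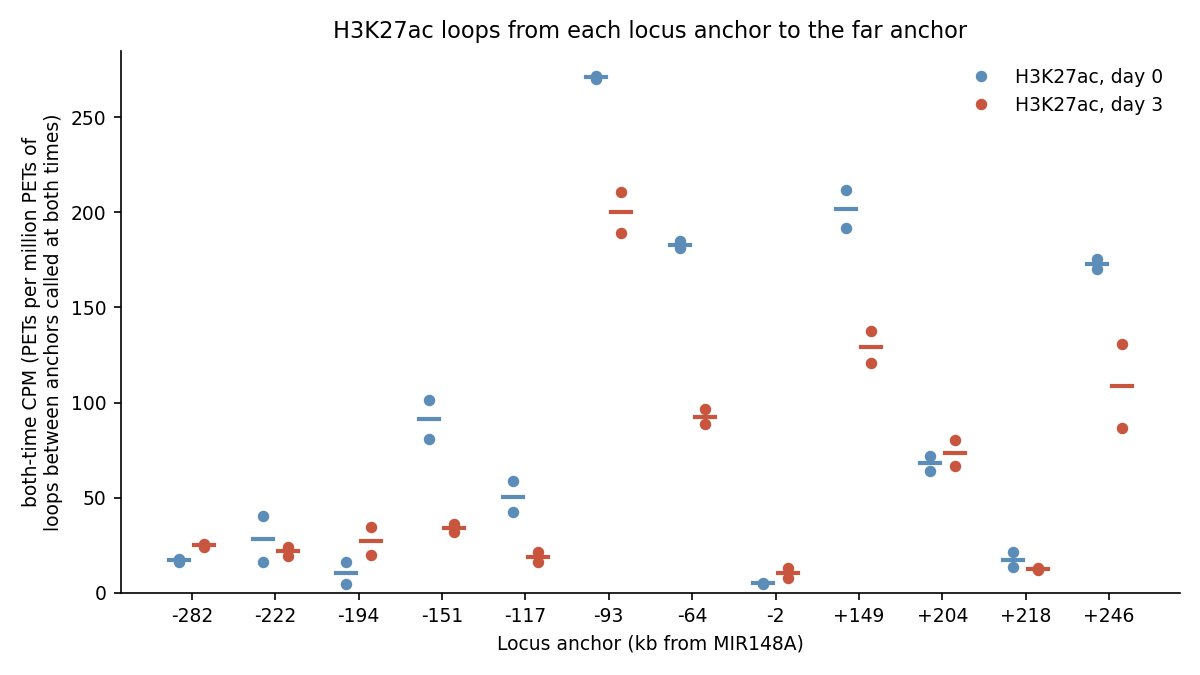
H3K27ac PETs of the loop between each locus anchor and the far anchor in both-time CPM (vertical axis), by the position of the locus anchor in kb from MIR148A (horizontal axis). Points are libraries and lines means of 2; the day 3 points lie below the day 0 points at -151.2, -117.1, -92.9, -64.2, +149.2, +218.5 and +245.8 kb, both day 3 points lie above both day 0 points at -281.8, -194.2 and -1.5 kb (MIR148A), and the groups overlap at -221.7 kb and at the NFE2L3 start (+204.4 kb).

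Within the block on the lower-coordinate side, the loop between the -117.1 and -64.2 kb anchors fell from 72.1 and 106 to 42.9 and 20.1 both-time CPM (log2 fold change -1.52 ± 0.37, SE, n = 2 libraries a time; edgeR adjusted p = 0.00105). Without day 0 replicate 2 or day 3 replicate 2 its adjusted p was 0.108 and 0.18. The loop that joins the -64.2 kb anchor to the +149.2 kb anchor across MIR148A fell from 248 and 288 to 152 and 173 both-time CPM (log2 fold change -0.74 ± 0.19, SE, n = 2 libraries a time; edgeR adjusted p = 0.00194). Its adjusted p was 0.0749 without day 0 replicate 2 and 0.174 without day 3 replicate 1.

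The loop from the -64.2 kb anchor to chr7:25375101-25436122 fell by 0.69 ± 0.23 on the log2 scale (SE, n = 2 libraries a time; edgeR adjusted p = 0.0243), and the sparse loop from the -194.2 kb anchor to chr7:27132999-27163006, with 7 and 5 PETs at day 0 against 4 and 2 at day 3, was also called lower (edgeR adjusted p = 0.0161). Each of these calls was lost when any 1 of the 4 libraries was left out. The loop called higher, from chr7:25601824-25609084 to the -221.7 kb anchor, had 0 and 0 PETs at day 0 against 6 and 6 at day 3, so no fold is given. It passed the filter through the day 3 libraries alone and had to differ, so its call is not read as a result. By edgeR the call was lost without day 0 replicate 1 or 2 (adjusted p 0.219 and 0.173).

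The locus as a whole held a smaller share of H3K27ac PETs in both day 3 libraries than in either day 0 library. Without the loops of the anchor it was chosen on, it held 6579 and 6761 listed CPM at day 0 and 5074 and 4958 at day 3, a ratio of 0.752 (exact two-sided permutation test, p = 0.333, the smallest that 2 against 2 libraries can give). Among loops between anchors called at both times the ratio was 0.88. The day 3 libraries list 162010 and 162167 loops in all against 46677 and 44104 at day 0, and the part of this in the share was not tested. Without the anchor the locus was chosen on, 50.1% ± 0.705 (SD, n = 2) of the locus PETs of loops between both-time anchors lay inside the window at day 0 and 51.6% ± 1.15 (SD, n = 2) at day 3. Beyond 27 Mb on the chromosome lay 15.3% ± 0.787 (SD, n = 2) at day 0 and 12.9% ± 0.00343 (SD, n = 2) at day 3.

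Counted with either end in the window, locus contacts were long. The median span per PET was 272 and 284 kb at day 0 and 237 and 208 kb at day 3 (difference -55.0 kb; exact two-sided permutation test, p = 0.333, the smallest possible). Over all loops of the same libraries it was 76.4 and 78.9 kb at day 0 and 101 and 99.9 kb at day 3, so the groups were ordered the other way. Without the loops of the anchor the locus was chosen on, which those locus medians include, the span was 306 kb in both day 0 libraries and 244 and 208 kb at day 3. The locus difference shrank to -3.47 kb when both anchors had to lie in the window. Without that anchor's loops, loops of the locus averaged 9.70 ± 0.25 PETs at day 0 and 12.6 ± 0.218 at day 3 (SD, n = 2), and 55.7% and 48.1% of them had a deposited value of 0.01 or less, against 20.1% and 21.8% of all loops.

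For ARID1A at day 3, anchors merged over all 6 libraries gave 13 with an ARID1A anchor in the window, 8 of them shared with H3K27ac and 5 without it. The longest stretch between ARID1A anchors ran 134769 bp, from chr7:25854127 to chr7:25988896, and the next longest 31620 bp. The 3 H3K27ac anchors at -117.1, -92.9 and -64.2 kb lay within this stretch, which ended at the MIR148A anchor. The distance from the anchor the locus was chosen on to the nearest ARID1A anchor was 27087 bp. The 5 anchors with ARID1A alone included 4 between MIR148A and the NFE2L3 block, at +44.8, +55.6, +85.0 and +102.9 kb, with 32.2 to 165 listed CPM.

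A single ARID1A anchor, chr7:26177444-26237052, covered the whole body of NFE2L3. Over the merged anchor chr7:26177444-26263152, which runs well past the end of the gene, ARID1A had 1188 and 1215 listed CPM. Day 3 H3K27ac had 1563 and 1567 there, a ratio of means of 0.768. At the merged MIR148A anchor ARID1A had 101 and 72.7 listed CPM and day 3 H3K27ac had 117 and 91.6, a ratio of 0.832. The other shared anchors had ratios between 0.378 at -149.8 kb and 0.595 at -178.8 kb. These values come from different antibodies and were not tested.

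The strongest ARID1A partner of the NFE2L3 anchor was chr7:26114539-26147012 in front of the gene, with 173 and 167 of its 437 and 450 PETs. That stretch overlaps the +149.2 kb anchor, which was the strongest H3K27ac partner of the NFE2L3 start. The MIR148A anchor of ARID1A (chr7:25988896-25998308) had 44 and 34 PETs, of which 9 and 10 went to the NFE2L3 anchor and 7 and 5 to chr7:26114539-26147012. The NFE2L3 anchor thus came first in both libraries, in counts too small to order the partners. It was 59608 bp wide, against 32473 bp for chr7:26114539-26147012, and the part of width in these counts was not tested. The median span of ARID1A locus contacts was 102 and 111 kb.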

How the data were processed

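Per the labels' protocols the libraries were paired reads of 150 bp; per the submitters' processing notes HiC-Pro, Bowtie2 and hg19 were used. For the settings and the loop caller, nothing is stated in the sources used here. The deposited files hold raw counts of PETs per loop and, without a header, a value from 0 to 1 that may be a p-value or a q-value, used only as a threshold of 0.01. Members and lists were chosen with earlier results of these data known.

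Coordinates are as the files give them. Anchors overlapping by 1 bp were merged over the 4 H3K27ac libraries for day 3 against day 0, because merging over all 6, used for ARID1A and as an alternative chosen after seeing the data, fuses the NFE2L3 anchors. Counts of loops between anchors called at both times were tested genome-wide with edgeR 4.0.16 (R 4.3.3; quasi-likelihood, TMM, Benjamini-Hochberg, threshold 0.05), for anchors with at least 10 PETs and loops with at least 4 PETs in at least 2 libraries; SE is the log2 fold change over the square root of F. The scripts were tested on simulated data. Single values were compared by exact permutation over 6 arrangements. Named by rule were the anchors at the genes, up to 8 further anchors, the loops among the gene anchors and the 8 strongest loops; called loops were added. DESeq2 1.42.0 and other settings, including replicates left out in turn, were tried. Python 3.11.15, pandas 2.3.3, numpy 2.4.6 and scipy 1.17.1 were used. Both genes matched RefSeq, and 1 had a promoter entry.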

Additional observations from a re-analysis of the deposited data

How the results depend on the processing

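Depth limits the locus most at the MIR148A anchor and at single loops. Of 11 locus anchors, 4 were called; the count was 11 with library totals, 2 with DESeq2, 8 with loops at a deposited value of 0.01 or less, 1 of 6 with anchors of similar width, and 1 to 3 when each replicate was left out. Of 120 loops, 10 were called; the count was 42 with library totals, 1 with DESeq2, 1 (higher) of 194 without the filter, 0 of 81 after thinning (9 at an unadjusted p under 0.05), 1 (higher) of 41 with anchors of similar width, 9 of 65 (5 higher, 4 lower) with anchors within 5 kb merged, and 1 to 5 when each replicate was left out. Deviations of same-numbered replicates correlated at 0.0168 over 6500 anchors. The replicates lay near counting noise (chi-square per degree of freedom over anchors 1.15 at day 0 and 1.04 at day 3). This correlation therefore cannot decide whether the numbers pair the libraries. With the replicate block, edgeR called 3 anchors and 0 loops of the locus (18 loops at an unadjusted p under 0.05). For the counts at an unadjusted p, no genome-wide share was taken.

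Genome-wide, 2374 anchors and 2257 loops were called. Library totals gave 3798 and 3778, DESeq2 1159 and 674, and anchors of similar width 497 and 59. A deposited value of 0.01 or less gave 1035 anchors, the replicate block 363 loops, thinning 213 loops, and leaving out a replicate 915 to 1266 loops.

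Some folds turned sign. Under library totals, the -281.8 kb anchor was at -0.42 and the NFE2L3 start at -0.49. With loops at a deposited value of 0.01 or less, MIR148A was at 1.00, the NFE2L3 start at -0.45 and the +218.5 kb anchor at 0.17. With anchors of similar width, the anchors at -221.7, -194.2, -151.2 and -117.1 kb were at 0.15, 0.19, 0.18 and 0.037. After thinning, those at -194.2 and -151.2 kb were at 0.061 and 0.012. Merging within 5 kb put the -221.7 kb anchor at 0.18 and the -194.2 kb anchor, joined to a neighbour called only at day 3, at 0.60 (edgeR adjusted p = 8.41e-11); merging all 6 libraries put the -221.7 kb anchor at 0.21. Without loops of the anchor lacking ARID1A, MIR148A was at 0.044. Leaving out each replicate gave -0.16 to 0.0071 at -221.7 kb, -0.11 to 0.044 at -194.2 kb, -0.083 to 0.0092 at -151.2 kb, and -0.20 to 0.18 at MIR148A. Under library totals and with anchors of similar width, the PETs of each anchor kept were those of the main fit. Only the scaling between libraries and the set of anchors fitted differed there. The cause of the other reversals was not tested. The locus share ratio ran from 0.685 to 0.88 and the span difference from -69.3 to -3.47 kb, with no reversal. Of single anchors and loops, 152 values kept direction and side of the threshold, 90 lost their call, 12 gained one and 22 turned sign.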
